A study of Mus musculus with 60 samples.

Results

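Glutathione peroxidases and peroxiredoxins were followed across 5 mouse cell lines on spotted 2-colour arrays. The members were Gpx1, Gpx3, Gpx4 and Gpx7 and Prdx1 to Prdx6, 10 genes chosen by gene symbol. Of these, 8 genes had a row, in 15 rows that hold 8 distinct probes, out of 21926 distinct probes on the arrays. Prdx5 and Prdx6 were not analysed here. A total of 7 member probes entered the tests, out of 9722 probes for 8110 genes. Gpx1 did not, because a test needed at least 2 cultures in every line. It had 1 usable culture each in lines IM2 and D7F, and 8 of 15 in all.

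The IM2 cells were not transfected. Lines WTA and WTD carry wild-type Pabpn1, with a level labelled high in WTA and low in WTD. D7E and D7F carry mutant Pabpn1, labelled high and low in the same way, except that 1 D7F array (culture 1, part I) is described as high. The low level given for the other D7F arrays of part I was followed, and the high against low values rest on this. The Pabpn1 protein binds poly(A) tails in the nucleus, and the labels name oculopharyngeal muscular dystrophy, which an expanded alanine stretch in this protein causes in people. Each line was grown as 3 cultures, and total RNA of every culture was hybridised against a common IM2 reference on 2 array parts with both dye orientations. That makes 60 arrays, 4 for each culture. There was 1 line for each combination of genotype and level, so neither can be told apart from other differences between lines. Whether a line is a clone, the promoter of the transgene and the tissue of origin were not stated in the labels.

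Both families reduce peroxides. Glutathione peroxidases use glutathione as the electron donor and, in Gpx1, Gpx3 and Gpx4, a selenocysteine at the active site, while Gpx7 has a cysteine there and works in the endoplasmic reticulum. Peroxiredoxins use a reactive cysteine that thioredoxin usually restores, and they sit in the cytosol (Prdx1, Prdx2), mitochondria (Prdx3) or the endoplasmic reticulum and secretory path (Prdx4). In muscle cells these enzymes limit the peroxide that respiration and protein folding produce.

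Every value below is a log2 ratio of a culture over the IM2 reference, averaged over both dyes, and each size holds only if the deposited log ratios are in base 10. Zero means the same signal as in the reference. The ratios compare a gene with itself between lines and give no level of a gene against another gene. A lower ratio can mean fewer cells that express a gene or less RNA per cell, and these cannot be told apart. The labels do not say that the cultures are independent beyond their numbers, so p-values measure the spread between these cultures, which may be technical. The transgene was seen on the arrays: the Pabpn1 ratio averaged -0.18 ± 0.06 in IM2, against 2.19 ± 0.29 in WTA and 1.43 ± 0.07 in WTD, and 1.61 ± 0.14 in D7E and 0.92 ± 0.11 in D7F (SD, n = 3). Pabpn1 fixes the direction of part I only. For part II, which carries the Gpx7 probe, 156 genes measured on both parts gave r = 0.397 across genes between the differences of the transfected lines from IM2, and of 8 genes that passed on each part, 7 changed the same way on each. Genes are no independent replicates here.

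Some arrays stood apart in quality. On part I, 82.4% to 99.9% of rows were filled and 0.721% to 28.7% of values sat at a deposited limit. On part II these ranges were 46.0% to 99.4% and 2.76% to 33.2%. On part I 3 arrays and on part II 7 arrays had under 80% of rows filled or over 20% of values at a limit. Of these, 6 were IM2 arrays, which include every array of IM2 culture 1. The other 4 were 3 arrays of WTA culture 1 and 1 array of WTD culture 1. The main results of Gpx7, Prdx4, Gpx3, Prdx3 and Prdx1 are therefore given with and without these arrays. Without them, 1 dye orientation was enough for a culture value. The redox lists, cell type markers, Prdx2 and Gpx4 are given with these arrays only, as are most values by single line.

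The family was selected on earlier results of these arrays, in which the Gpx7 difference between WTD and IM2 was among the largest of that comparison. The values of Gpx7, and of every member in WTD against IM2, are therefore descriptions with no test. The mean of the transfected lines and the contrasts between transfected lines also include WTD. Their p-values for the other members thus rest in part on values of the comparison used in the selection. All differences from IM2 share the same 3 IM2 cultures, so they are set side by side and not counted as separate evidence.

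Among the 7 members measured in all 15 cultures, the line means of Gpx7, Prdx4 and Gpx3 spread most widely. The promoters of these 3 genes are shown for that reason alone. Each run is the 250 bases before the annotated start of the gene, read 5′ to 3′ along the gene's strand, from RefSeq on GRCm38.p6. Capitals mark letters that matched a searched motif. The windows are chr4:108406714-108406963 on the minus strand for Gpx7, chrX:155338461-155338710 on the minus strand for Prdx4, and chr11:54902604-54902853 on the plus strand for Gpx3.
Gpx7: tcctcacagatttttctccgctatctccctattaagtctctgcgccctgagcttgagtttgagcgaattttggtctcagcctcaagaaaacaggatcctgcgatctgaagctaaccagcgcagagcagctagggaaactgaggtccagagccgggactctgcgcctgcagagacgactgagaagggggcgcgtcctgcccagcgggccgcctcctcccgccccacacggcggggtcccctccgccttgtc
Prdx4: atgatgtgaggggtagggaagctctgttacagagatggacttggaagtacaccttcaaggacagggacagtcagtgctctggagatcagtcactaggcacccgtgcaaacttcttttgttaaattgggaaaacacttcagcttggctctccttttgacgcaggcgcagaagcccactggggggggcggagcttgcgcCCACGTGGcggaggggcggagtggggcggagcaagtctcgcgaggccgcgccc
Gpx3: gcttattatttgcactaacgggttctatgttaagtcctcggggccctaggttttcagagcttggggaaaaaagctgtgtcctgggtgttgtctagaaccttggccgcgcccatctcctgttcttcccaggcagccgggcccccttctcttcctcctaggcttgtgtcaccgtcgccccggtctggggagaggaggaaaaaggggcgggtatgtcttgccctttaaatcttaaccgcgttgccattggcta
The motifs were searched on both strands in 12 windows of 9 members, and in 32851 windows of all genes. The E-box CACGTG was found in the Prdx4 window, 52 bases before the start, and in 6.02% of all windows. The stress element core CCACG, which overlaps that E-box on both strands, was found in windows of Gpx4, Prdx2, Prdx3, Prdx4 and Prdx5 and in 28.3% of all windows. The antioxidant response core TGACNNNGC was found in a window of Prdx1 and in 10.2% of all windows. The element TGATGNAA was found in 0 member windows and in 3.45% of all windows. A match describes the letters only, and no binding was measured.

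Gpx7, which passes oxidising equivalents from peroxide to protein disulfide isomerases in the endoplasmic reticulum, had a far lower ratio in WTD than in any other line. Its culture values were -0.03, -0.06 and 0.08 in IM2, and -2.74, -3.92 and -3.47 in WTD. In WTA they were -0.93, -0.66 and -0.59. They were -0.17, -0.24 and -0.33 in D7E, and -0.44, -0.21 and -0.41 in D7F. All 12 transfected cultures lay below all 3 IM2 cultures, and the 3 WTD cultures lay apart from the rest by more than the whole spread of the other 4 lines. The difference from IM2 was -3.37 in WTD (SE 0.23), a 10.4-fold lower ratio. It was -0.72 in WTA, -0.24 in D7E and -0.35 in D7F, with the same SE.

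In order of the means, Gpx7 ran from WTD (-3.38 ± 0.60) through WTA (-0.72 ± 0.18), D7F (-0.35 ± 0.13) and D7E (-0.25 ± 0.08) to IM2 (0.00 ± 0.07; SD, n = 3). The cultures of D7F and D7E overlapped, while those of the other neighbours in this order did not. Between the lines of wild-type Pabpn1, WTA lay above WTD by 2.65 (SE 0.23), a 6.29-fold difference. Between the mutant lines, D7E and D7F differed by 0.11 with the same SE. All 6 mutant cultures lay above all 6 wild-type cultures, with a difference between the genotype means of 1.75 (SE 0.16). That difference held both wild-type lines together, although their distances to the mutant lines were unequal. WTA minus D7E was -0.48 and WTA minus D7F was -0.37, while WTD minus D7E was -3.13 and WTD minus D7F was -3.02. The lines labelled high lay above those labelled low by 1.38. The contrast of genotype with level, which sets WTD with D7E against WTA with D7F, was -1.27.

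Both dyes showed the Gpx7 pattern. All 24 arrays of the transfected lines gave a negative ratio, and no Gpx7 value lay at a limit. In WTD the mean was -3.44 with the culture RNA in Cy3 (-3.65 to -3.28) and -3.32 with it in Cy5 (-4.20 to -2.10). Without the low-quality arrays the WTD difference from IM2 was -3.14, the genotype difference 1.59 and the level difference 1.32. In that setting the IM2 value rested on the Cy5 array of culture 2 and the Cy3 array of culture 3. WTA culture 1 dropped out, and WTD culture 1 kept its Cy5 array alone. Leaving out any single culture gave a WTD difference from -3.69 to -3.10.

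**Figure D1:**
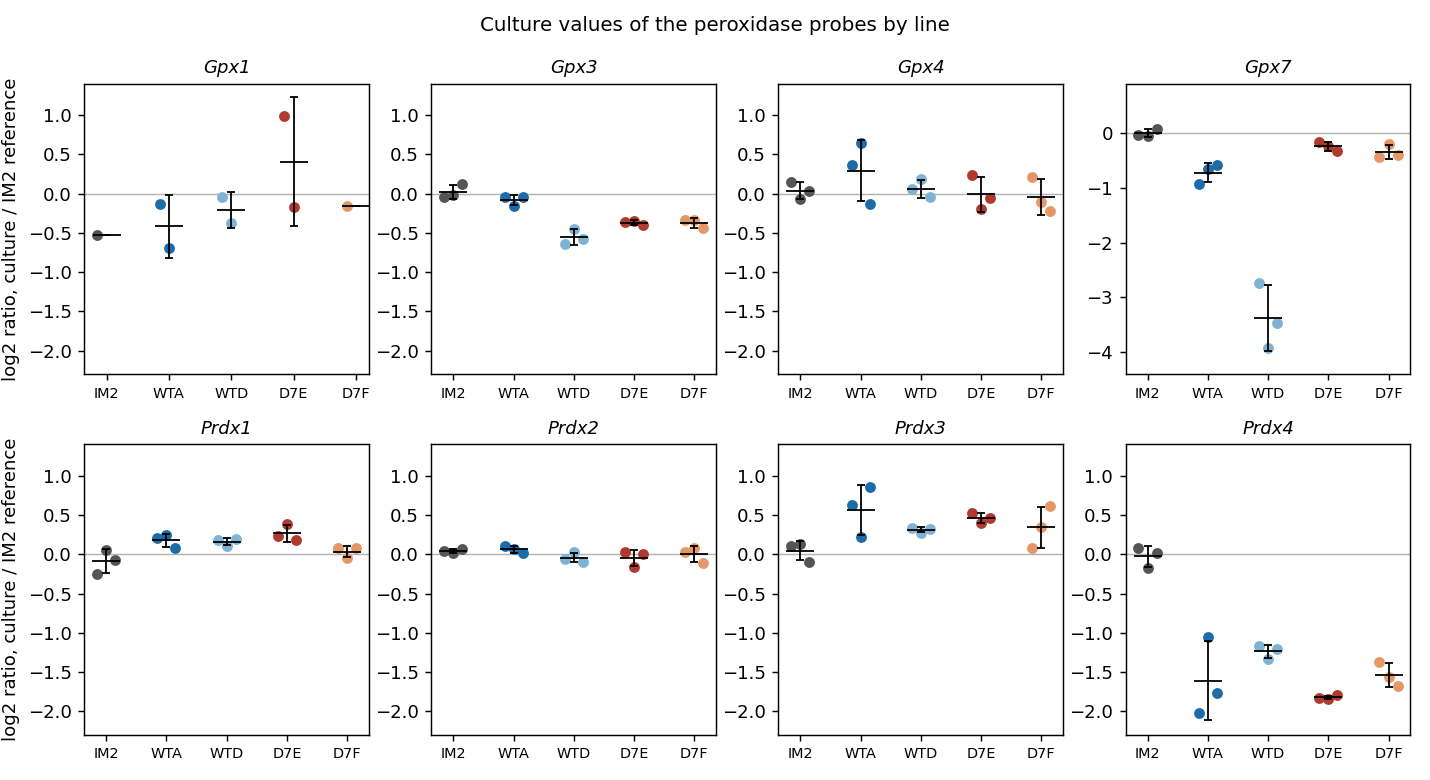
Log2 ratio of every culture over the IM2 reference (y axis) for the 8 member probes, by line (x axis); points are cultures, black bars the mean and SD of the line (3 cultures, fewer for Gpx1). Gpx7 has its own axis because its WTD cultures reach -3.92, and the Prdx4 cultures of all 4 transfected lines lie between -2.02 and -1.05.

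Prdx4, the peroxiredoxin of the endoplasmic reticulum, had a lower ratio in all 4 transfected lines. Its culture values were 0.08, -0.17 and 0.01 in IM2, and -2.02, -1.05 and -1.76 in WTA. In WTD they were -1.17, -1.33 and -1.21. They were -1.82, -1.84 and -1.80 in D7E, and -1.37, -1.56 and -1.68 in D7F. No transfected culture overlapped IM2, and the 3 D7E cultures lay within 0.05 of each other. The mean of the transfected lines, which includes WTD, fell by 1.53 (SE 0.16), a 2.88-fold lower ratio (limma adjusted p = 0.000109 over all 9722 probes, lower in 12 of 12 cultures).

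By line, Prdx4 changed by -1.58 in WTA (SE 0.20, limma adjusted p = 0.000529). The D7E difference was -1.80 (adjusted p = 0.000297), and that of D7F was -1.51 (adjusted p = 0.00144). These are 3.00-fold, 3.47-fold and 2.85-fold lower ratios. The WTD difference of -1.21 is described with no test. From low to high the order was D7E (-1.82 ± 0.02), WTA (-1.61 ± 0.50), D7F (-1.54 ± 0.15), WTD (-1.24 ± 0.08) and IM2 (-0.03 ± 0.13; SD, n = 3). The cultures of WTA overlapped those of D7E and D7F, and WTD overlapped neither D7F nor IM2. No contrast between transfected lines passed for Prdx4. Mutant minus wild-type was -0.26 (SE 0.14, limma adjusted p = 0.799), high minus low was -0.33 (adjusted p = 0.600), and the genotype with level contrast was 0.04 (adjusted p = 0.934). WTA culture 2 held the highest transfected value, and without it high minus low was -0.47 (limma adjusted p = 0.0316).

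All 24 transfected arrays gave a negative Prdx4 ratio with either dye. Without the low-quality arrays the transfected mean fell by 1.48 (limma adjusted p = 0.0106). When only WTA and IM2 were fitted, the WTA difference kept its size of -1.58 but did not pass (limma adjusted p = 0.0990). Gpx7 and Prdx4 share the compartment, and their orders of lines differ: WTD was the lowest line for Gpx7 and the highest transfected line for Prdx4. WTD minus D7E was 0.58 for Prdx4 (SE 0.20) and -3.13 for Gpx7 (SE 0.23). These are 2 differences described side by side, and the difference between them was not tested.

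**Figure D2:**
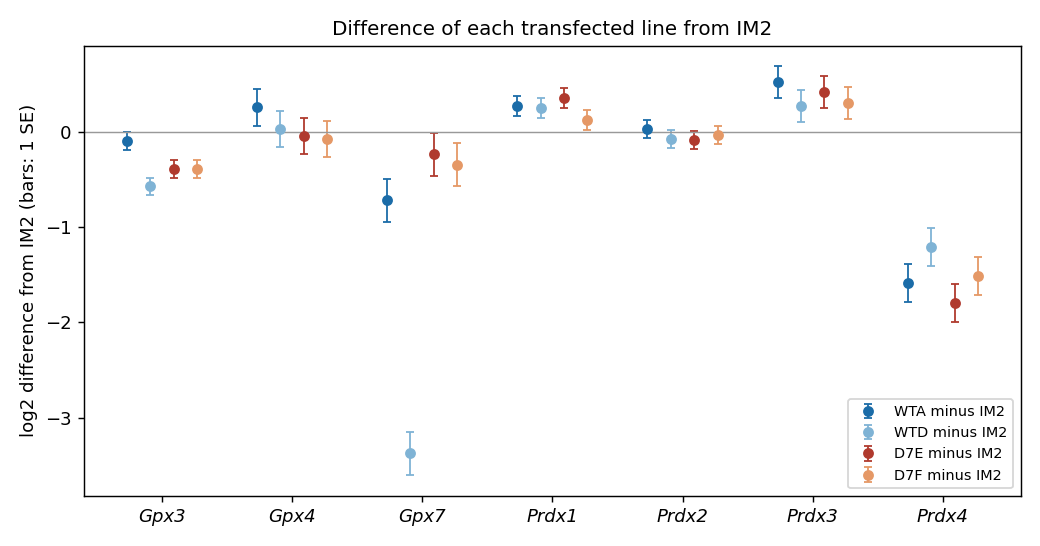
Difference of each transfected line from IM2 on the log2 scale (y axis) for the 7 tested members (x axis), with bars of 1 SE from the fit over 5 lines. Prdx4 lies between -1.80 and -1.21 in all 4 lines, Gpx7 reaches -3.37 in WTD alone, and the other members lie within -0.57 and 0.52.

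Gpx3, the secreted glutathione peroxidase of plasma, was lower in 3 of the 4 transfected lines. Its culture values were -0.04, -0.02 and 0.13 in IM2, and -0.05, -0.15 and -0.04 in WTA. In WTD they were -0.64, -0.45 and -0.57. They were -0.36, -0.35 and -0.40 in D7E, and -0.33, -0.34 and -0.44 in D7F. The cultures of WTD, D7E and D7F did not overlap IM2 or WTA, and the WTA cultures lay just below those of IM2. Gpx3 fell by 0.39 in D7E (SE 0.09, 1.31-fold, limma adjusted p = 0.0179). It also fell by 0.39 in D7F, with an adjusted p = 0.0340. The transfected mean fell by 0.37 (SE 0.07, limma adjusted p = 0.00705, lower in 12 of 12 cultures). In WTA the difference was -0.10 (limma adjusted p = 0.532), and in WTD it was -0.57, with no test.

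In order, Gpx3 ran from WTD (-0.55 ± 0.10) through D7F (-0.37 ± 0.06), D7E (-0.37 ± 0.03) and WTA (-0.08 ± 0.06) to IM2 (0.02 ± 0.09; SD, n = 3). D7F and D7E overlapped, and the gap of 0.10 between WTA and IM2 was smaller than their SDs added together. WTA lay above WTD by 0.47 (SE 0.09), above D7E by 0.29 and above D7F by 0.29. The contrasts between transfected lines did not pass. High minus low was 0.24 (SE 0.07, limma adjusted p = 0.239), the genotype with level contrast -0.24 (adjusted p = 0.0820) and mutant minus wild-type -0.05 (adjusted p = 0.930). With only probes measured in all 15 cultures tested, the genotype with level contrast passed (-0.24, adjusted p = 0.0376). With 1 dye alone it did not (adjusted p = 0.371 in Cy3 and 0.434 in Cy5).

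The Gpx3 ratio depended on the dye. With the culture RNA in Cy3 the IM2 mean was -0.10 and the WTA mean -0.26, while WTD had -0.85, D7E -0.65 and D7F -0.74. With the culture RNA in Cy5 these means were 0.14, 0.10, -0.25, -0.09 and -0.01 in the same order. The Cy3 ratio was negative on 15 of 15 arrays and the Cy5 ratio on 8 of 15. For WTA culture 3 on part I, titles and channel sources give opposite dyes, and the channel sources were used. With the dyes of that culture exchanged, the counts would be 14 of 15 and 9 of 15, and the WTA means -0.13 in Cy3 and -0.03 in Cy5. WTD was the lowest line in both orientations. With Cy5 arrays alone the transfected difference was -0.20 (limma adjusted p = 0.221), and with Cy3 arrays alone it was -0.53 (adjusted p = 0.00862). Without the low-quality arrays it was -0.39 and did not pass (limma adjusted p = 0.0979). The D7E call ended without IM2 culture 3 (-0.34, limma adjusted p = 0.0513). The D7F call ended without IM2 culture 3, without WTD culture 3 and without each D7F culture in turn, with adjusted p from 0.0513 to 0.0978.

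**Figure D3:**
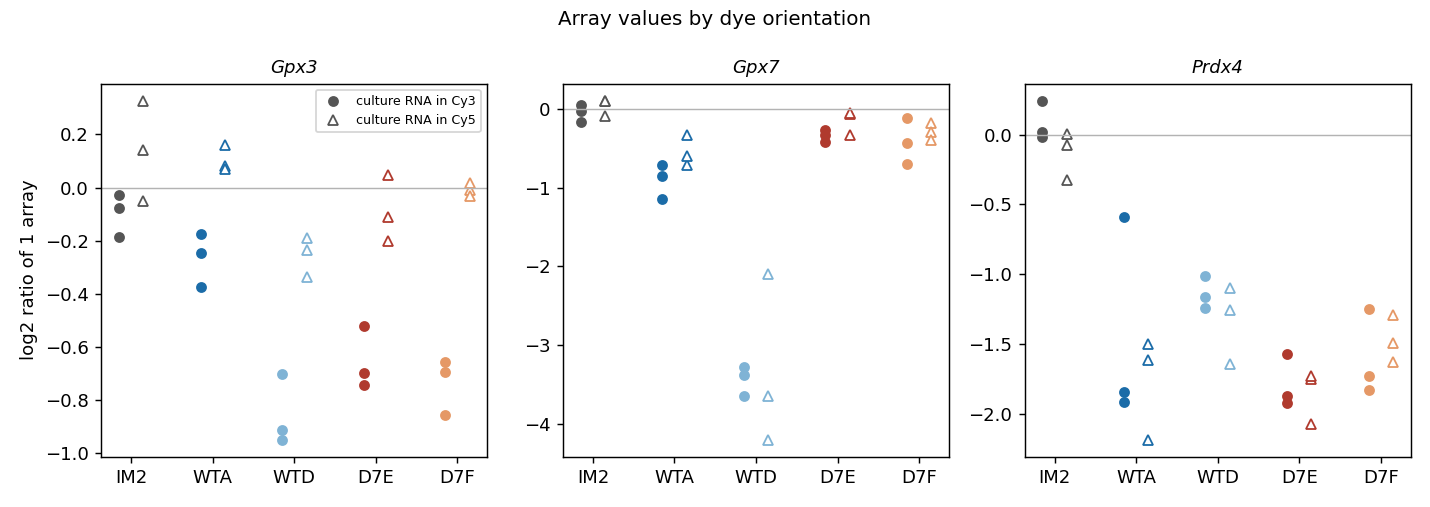
Log2 ratio of each array (y axis) for Gpx3, Gpx7 and Prdx4 by line (x axis), with filled circles for culture RNA in Cy3 and open triangles for Cy5; each panel has its own y axis. For Gpx3 the Cy5 values of D7F average -0.01 and the Cy3 values -0.74, while for Gpx7 and Prdx4 both dyes give negative values on all 24 transfected arrays.

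Prdx3, the peroxiredoxin of mitochondria, had higher ratios in the transfected lines, but no line passed. Its culture values were 0.10, 0.13 and -0.10 in IM2, 0.62, 0.22 and 0.85 in WTA, and 0.34, 0.28 and 0.32 in WTD. In D7E they were 0.53, 0.40 and 0.46, and in D7F 0.08, 0.35 and 0.61. Of the 12 transfected cultures, 11 lay above all IM2 cultures, and 0 of 24 transfected arrays gave a negative ratio with either dye. The transfected difference was 0.38 (SE 0.13, 1.30-fold, limma adjusted p = 0.0696). It was 0.52 in WTA (SE 0.16, adjusted p = 0.0617), 0.42 in D7E (adjusted p = 0.127) and 0.30 in D7F (adjusted p = 0.322), and 0.27 in WTD with no test. In order, IM2 (0.05 ± 0.12) lay below WTD (0.31 ± 0.03), D7F (0.35 ± 0.26), D7E (0.46 ± 0.07) and WTA (0.56 ± 0.32; SD, n = 3). Only IM2 and WTD, as neighbours in this order, did not overlap.

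The Prdx3 result stood near the threshold. Without WTA culture 2 the WTA difference was 0.69 (limma adjusted p = 0.0100) and the transfected difference 0.42 (adjusted p = 0.0172). Without D7F culture 1 both also passed (0.52 and 0.41, adjusted p = 0.0487 and 0.0450), as did the WTA difference without D7F culture 3 (0.52, adjusted p = 0.0460). When every IM2 array had its sign turned, the transfected difference was 0.47 (limma adjusted p = 0.0270) and the WTA difference 0.61 (adjusted p = 0.0298). With only probes measured in all 15 cultures tested, these were 0.38 and 0.52 (adjusted p = 0.0398 and 0.0331). Without the low-quality arrays they were 0.40 and 0.54 and did not pass (adjusted p = 0.294 and 0.261).

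Prdx1, a cytosolic peroxiredoxin, rose by 0.36 in D7E (SE 0.11, 1.28-fold, limma adjusted p = 0.0472, higher in 3 of 3 cultures). Its D7E cultures had 0.23, 0.39 and 0.18 against -0.25, 0.05 and -0.07 in IM2. That call held in 4 of 26 alternative settings, with differences of 0.18 to 0.44 over them. It held without IM2 culture 2, without WTA culture 2 or 3, and with only probes measured in all 15 cultures tested. It ended without each of the other 12 cultures in turn, down to 0.27 without IM2 culture 1 (limma adjusted p = 0.132), and without the low-quality arrays it was 0.27 (adjusted p = 0.326). The WTA difference was 0.27 (limma adjusted p = 0.124) and the D7F difference 0.13 (adjusted p = 0.535), with 0.25 in WTD described only. The means ran from IM2 (-0.09 ± 0.15) through D7F (0.04 ± 0.07), WTD (0.16 ± 0.05) and WTA (0.18 ± 0.08) to D7E (0.27 ± 0.11; SD, n = 3). Neighbours overlapped except D7F and WTD, and 11 of 12 transfected cultures lay above IM2 (mean difference 0.25, limma adjusted p = 0.0642). That mean difference passed without IM2 culture 2 (0.32, adjusted p = 0.0283) and without WTA culture 3 (0.26, adjusted p = 0.0459). It also passed with only probes measured in all 15 cultures tested (0.25, adjusted p = 0.0353). Without the low-quality arrays it was 0.17 and did not pass (adjusted p = 0.476).

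Prdx2, the other cytosolic peroxiredoxin, stayed near 0 in every line. Its line means ran from -0.05 ± 0.11 in D7E through -0.04 ± 0.06 in WTD, 0.00 ± 0.10 in D7F and 0.04 ± 0.03 in IM2 to 0.06 ± 0.04 in WTA (SD, n = 3). All neighbours overlapped. The transfected difference was -0.05 (SE 0.07, limma adjusted p = 0.716). Its small ratios followed the dye: 12 of 15 Cy3 arrays were negative and 14 of 15 Cy5 arrays positive.

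Gpx4, which reduces peroxides of membrane lipids, varied as much within lines as between them. Its means were -0.04 ± 0.23 in D7F, -0.01 ± 0.22 in D7E, 0.04 ± 0.11 in IM2, 0.06 ± 0.11 in WTD and 0.29 ± 0.39 in WTA (SD, n = 3), and all neighbours overlapped. The WTA cultures ranged from -0.13 to 0.64. The transfected difference was 0.04 (SE 0.15, limma adjusted p = 0.886), and mutant minus wild-type was -0.20 (SE 0.14, adjusted p = 0.838). A missed threshold does not show that the lines are alike for Prdx2 or Gpx4.

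Gpx1, the cytosolic selenoenzyme, could not be followed at this precision. Of its 30 arrays, 7 lay at a limit and 2 were empty. The ratio took the sign of the dye: 12 of 14 filled Cy3 arrays were positive and 13 of 14 filled Cy5 arrays negative (11 and 12 with the dyes of WTA culture 3 exchanged). In IM2 culture 1 the deposited value was 2 in Cy3 and -2 in Cy5. In D7E culture 1 the log2 ratios were 4.28 in Cy3 and -2.31 in Cy5, which average to 0.99. The remaining culture values were -0.53 in IM2, -0.70 and -0.13 in WTA, -0.37 and -0.05 in WTD, -0.18 in D7E and -0.16 in D7F. The values of the lines overlap and no order is read from them.

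With Gpx7 set aside, 2 of the 6 other tested members passed the threshold between the transfected lines and IM2, both with a lower ratio (Prdx4, Gpx3), where 15.2% of all tested probes passed. In WTA 1 of the 6 passed, with a lower ratio, against 11.5% of all probes. In D7E 1 passed with a higher and 2 with a lower ratio, against 12.3%, and in D7F 2 passed with a lower ratio, against 4.49%. In WTD, the line used in the selection, 7.03% of all probes passed and the members are described only. Nothing about the family is read from these counts, since the members were chosen with such results known. The differences of the transfected mean ran both ways, from -1.53 for Prdx4 to 0.38 for Prdx3. Between the transfected lines, 0 of the 6 passed limma's adjusted threshold in any contrast, and at an unadjusted p under 0.05 there were 0 for mutant against wild-type, 2 for high against low and 1 for the contrast of both. Of all 9722 probes, 0.195%, 0.381% and 2.37% passed the adjusted threshold in these contrasts. At an unadjusted limma p under 0.05 there were 649, 766 and 1391 of them.

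The probes most like the 3 widest members were taken by the root mean square difference of their centred culture values over 15 cultures, among 5529 probes. For Gpx7 they were Pvalb (0.811), a calcium-binding protein of fast muscle, Fbxo5 (0.812), an inhibitor of the anaphase-promoting complex, and Eml1 (0.821), a microtubule-associated protein. All 3 were lowest in WTD, with means of -1.69, -1.18 and -2.18, none as low as Gpx7. For Prdx4 they were Psmb8 (0.230), a subunit of the immunoproteasome, Serp1 (0.233), a protein of the endoplasmic reticulum, and Ddit3 (0.241), a transcription factor of the stress response. Their D7E means were -1.63, -1.22 and -1.87. For Gpx3 they were 4833408C14Rik (0.0946), Gdf3 (0.102), a growth factor, and Mpp6 (0.103), a membrane scaffold protein. Likeness over these cultures says nothing of shared function or control.

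The redox partners of the members were read from lists drawn up by function, with earlier results of these arrays known. Their counts and p-values describe these cultures and are no independent evidence. The list counts stand beside the 15.2% of all tested probes that passed between the transfected mean and IM2. List and marker results include the low-quality arrays and were not repeated without them. Over all probes, 1480 of 9722 passed with those arrays and 247 of 16922 without them. Thioredoxin and the enzymes that restore peroxiredoxins had 12 of 14 genes tested, and against IM2 the transfected lines had 1 higher and 2 lower. Sesn1, a sestrin, rose by 0.59 (SE 0.14, limma adjusted p = 0.0163). Sesn2, its relative, fell by 0.58 (SE 0.14, adjusted p = 0.0179), and Srxn1, the sulfiredoxin that repairs overoxidised peroxiredoxins, fell by 0.51 (SE 0.12, adjusted p = 0.0143). The median of the list was 0.12 against 0.03 over all probes. Of glutathione synthesis and reduction, 6 of 12 genes were tested and 0 passed for the transfected mean. In WTA, Idh1, a source of NADPH, rose by 1.21 (SE 0.32, limma adjusted p = 0.0293).

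Of the glutathione S-transferases, 11 of 18 genes were tested and 2 fell. Gstk1, the mitochondrial and peroxisomal form, fell by 1.32 (SE 0.27, limma adjusted p = 0.00705), and Gstm5 by 0.36 (SE 0.09, adjusted p = 0.0245). Of the other enzymes of peroxide and superoxide, 7 of 11 were tested and 2 fell. Sod3, the extracellular superoxide dismutase, fell by 0.91 (SE 0.20, limma adjusted p = 0.0115). Its IM2 mean was -0.22, the wild-type lines had -2.04 in WTA and -0.86 in WTD, and the mutant lines -1.65 in D7E and 0.04 in D7F. The lines labelled high lay below those labelled low (difference -1.43, SE 0.18, limma adjusted p = 0.00576). Gpx8, a close relative of Gpx7 in the endoplasmic reticulum, fell by 0.32 (SE 0.09, adjusted p = 0.0292). In WTD, where Gpx7 was lowest, the Gpx8 mean was -0.07, against -0.34 in WTA and -0.35 in D7E.

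Of the Nrf2 pathway, the transcription factor that drives many antioxidant genes, 13 of 15 genes were tested and 3 fell. Ftl1, the ferritin light chain, fell by 1.22 (SE 0.20, limma adjusted p = 0.00160). Hmox1, the haem oxygenase, fell by 1.08 (SE 0.12, adjusted p = 0.000236), and the third was Srxn1. Of selenoprotein synthesis and other selenoproteins, 9 of 14 were tested and 1 fell: Pstk, the kinase that acts on the selenocysteine transfer RNA (-0.41, SE 0.12, limma adjusted p = 0.0317). Pstk was also lower in WTD and D7E than in WTA and D7F by a contrast of -0.44 (SE 0.10, adjusted p = 0.0446).

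Of oxidative folding in the endoplasmic reticulum, where Gpx7 and Prdx4 consume the peroxide that Ero1 makes, 9 of 11 genes were tested and 5 fell, with a list median of -0.45. That count includes Ero1a, the oxidase that makes this peroxide, which fell by 2.47 (SE 0.18). Pdia5, a disulfide isomerase, fell by 1.66 (SE 0.25, adjusted p = 0.00127), and P4hb, the main disulfide isomerase, by 1.39 (SE 0.17, adjusted p = 0.000331). The other 2 were Pdia3 (-0.75) and Sil1 (-0.24), named after their values were seen. The low Ero1a ratio was known from earlier results of these arrays, so it is described with no test. Its mean was -2.65 in WTA and -2.39 in WTD, and among the mutant lines -2.52 in D7E and -2.25 in D7F. Its 4 transfected lines thus lay close together, where Gpx7 was lower in WTD than in the other lines.

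Some cell type markers also differed between the transfected lines and IM2, where 15.2% of all tested probes passed. Of the myogenic markers, 5 of 10 tested rose and 0 fell in the transfected lines, with a median of 0.49 over the list. They were Mef2c (0.60), Myf6 (0.54), Tnni1 (0.51), Tnnt3 (0.46) and Myod1 (0.31), named after their values were seen. By line, 3 of the 10 rose in WTA, against 11.5% of all probes that passed there, and 0 in WTD, against 7.03%. In D7E 1 rose, against 12.3%, and in D7F 2 rose, against 4.49%. Of 7 fibroblast markers listed, only 3 were tested, all collagens. All 3 fell, Col1a1 (-1.22), Col1a2 (-1.35) and Col3a1 (-1.44), and they fell in all 4 lines. Adipocyte and endothelial markers had 0 of 2 passing each, and 0 leukocyte markers were tested. The arrays give ratios, so no summed marker level can be set beside the members, and the part of these markers in the results was not tested.

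**Figure D4:**
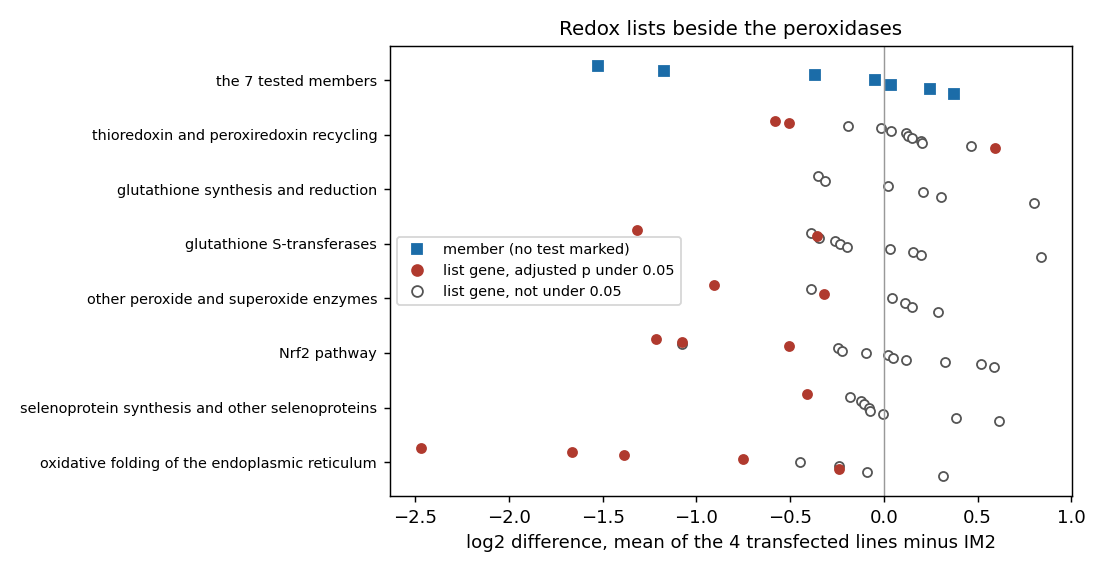
Difference between the mean of the 4 transfected lines and IM2 on the log2 scale (x axis) for the 7 tested members and the tested genes of 7 redox lists (y axis, 1 row a list). Squares are members, filled circles list genes with an adjusted p under 0.05 and open circles the others. The oxidative folding row holds the lowest value, Ero1a at -2.47, and 5 filled circles. They include Ero1a, whose low ratio was known beforehand and is described with no test.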

How the data were processed

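The deposited values are log ratios of culture over reference. The authors' unit is not stated, and the base was taken as log10 because the deposited values stop at -2 and 2, a ratio of 100. They were multiplied by 3.3219 to give log2. The labels and file headers do not give the scanning, background correction, normalisation or genome build. Groups, culture numbers and dyes came from the labels. Titles and channel sources disagree on the dye of WTA culture 3 on part I, and the channel sources were used, which bears on values given by dye and not on culture means. No sign was turned, so a positive ratio means more signal from the culture.

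Rows with identical values were collapsed, and human control probes were left out of the tests. Symbols came from the platform annotation, updated by Entrez identifier. Values at -2 or 2 were dropped, and the 2 dye arrays of a culture were averaged where both had a value. Probes with at least 2 cultures in every line were tested (4652 on part I, 5070 on part II). Each part was fitted with limma 3.58.1 in R 4.3.3 over all 5 lines, and Benjamini-Hochberg adjustment ran over both parts, with a threshold of 0.05. The script was tested on simulated data. Culture numbers were not used as pairs. Between lines, deviations of same-numbered cultures correlated over 0.1 in 0 to 5 of 10 pairs per number and part. The highest r was 0.531, on part II. Differently numbered cultures were not compared, so pairing was not excluded. The number of arrays limits the precision.

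Every member probe is named. The 3 with the widest range of line means among those measured in all 15 cultures have all culture values and the 3 most alike probes. Of each list at most 3 passing genes a comparison were to be named. Oxidative folding and the myogenic markers depart from this, with all 5 that passed for the transfected mean named. The members and lists were chosen with earlier results of these data known. Alternatives were the limits, centring, scaling, the IM2 sign, each dye, the filters, array quality, a replicate block, the lines fitted and single cultures left out.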

Additional observations from a re-analysis of the deposited data

Results flagged for a closer look

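Gpx7 differed between the transfected lines in 3 contrasts, and with all cultures fitted and the filter used here no other member passed in them. Mutant minus wild-type was 1.75, high minus low was 1.38, and the contrast of WTD and D7E with WTA and D7F was -1.27, all on the log2 scale. The WTD mean of -3.38 entered all 3, and the nearest line, WTA, lay 2.65 above it. The family was selected with the low Gpx7 value of WTD known, so no test is given. The part of Pabpn1 in this difference was not tested, since WTD is 1 line.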

How the results depend on the processing

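The number of member probes past the threshold was 1 in WTA, 3 in WTD, 3 in D7E, 2 in D7F, 3 in the transfected mean, and 1 in each contrast between transfected lines. These counts include Gpx7 and the WTD comparison, which are descriptions with no test. Of 26 alternative settings, 0 reversed a called difference. Without the low-quality arrays, and with 16922 probes tested, the counts were 1 for WTD, D7E, D7F and the transfected mean, all Prdx4 or Gpx7, and 0 for the contrasts of genotype, of level and of both. Of all these probes, 70 passed for WTD, 223 for D7E, 80 for D7F and 247 for the transfected mean. In the contrasts 5, 13 and 66 passed. Cy5 arrays alone gave 2 for WTD, 1 for D7E, D7F and the transfected mean, and 0 for the same 3 contrasts. Of all 12873 probes tested there, 220 passed for WTD, 421 for D7E, 101 for D7F and 701 for the transfected mean. In the contrasts 5, 7 and 37 passed. Cy3 arrays alone gave 2 each for WTA, WTD and D7E (590, 291 and 477 of 12879 probes). With 1 orientation enough, D7E and D7F had 1 each (665 and 214 of 18257 probes). With limit values kept D7F had 1 and D7E 2 (319 and 760 of 12944 probes). Centring alone gave 2 for D7E (1024 of 9722 probes), and centring with scaling gave 1 (994 probes). Turning the sign of the IM2 arrays gave 3 for WTA, 2 for D7E and 4 for the transfected mean (1285, 1314 and 1792 of 9722 probes). With probes measured in all 15 cultures the counts were 3 for WTA, 5 for the transfected mean and 2 for the genotype with level contrast. Of all 5536 probes tested there, 1213, 1508 and 437 passed. Fitting only the lines compared gave 0 for WTA, where 1 of all 10640 probes passed, and 2 for WTD (170 of 10587 probes). It gave 1 for D7E (174 of 10782 probes) and 1 for D7F (17 of 10813 probes). Leaving out single cultures gave 1 to 2 for WTA, 1 to 3 for D7E, 1 to 2 for D7F, 1 to 2 for high against low, 3 to 4 for the transfected mean, and no change for the other 3. The causes were not tested, and several of these settings also change how many probes are tested.

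With the culture number as a replicate block, D7F had 1 (410 of 9722 probes) and D7E 2 (1096 probes), and the other counts were as given. The check of pairing did not decide whether such a block applies. Over all probes the block moved the calls of the transfected mean from 1480 to 1401.

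The Gpx7 difference between WTD and IM2 stayed between -3.69 and -3.10 in all 26 settings. The Prdx4 difference of the transfected mean stayed between -1.60 and -1.47 and past the threshold in all 25 settings run (adjusted p from 1.24e-05 to 0.0106). The Gpx3 difference of the transfected mean passed in 23 of 25 settings (-0.53 to -0.20), that of D7E in 20 of 26 (-0.56 to -0.23) and that of D7F in 15 of 26 (-0.64 to -0.15). Keeping the limit values moved the median of all probes by 0.13 in WTA. Cy3 arrays alone moved it by -0.11 for the transfected mean, and Cy5 arrays alone by 0.11 in WTD.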
